A study of Mus musculus with 6 samples.

Results

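The genes described here set membrane potential, ion balance, internal pH and cyclic AMP (cAMP) in sperm. They are Kcnu1, Lrrc52, Slc9c1, Atp1a4, Slc26a8, Slc26a3, Atp2b4, Adcy10, Prkaca and Prkar1a. These 10 genes were taken by symbol, and all were found among the 54532 genes of the deposited count table. Whole testis of mice gave 6 RNA-seq libraries, 3 labelled WT and 3 labelled 1700052I22Rik-KO, a knockout of a testis long non-coding RNA whose function in spermatogenesis the study examined. Strain, age, the deleted segment of the locus and any allele common to both genotypes are not stated in the labels. Nor do they state whether each replicate is a mouse of its own. The p-values therefore measure only the spread between these samples, which may be technical.

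Sperm leave the testis unable to fertilise, and the last step in gaining that ability, called capacitation, takes place in the female tract. During capacitation bicarbonate activates the soluble adenylyl cyclase encoded by Adcy10, the cAMP formed releases the catalytic subunit of protein kinase A from its regulatory subunits, and potassium efflux through the channel encoded by Kcnu1 makes the membrane potential more negative. Sodium and calcium pumps, a sperm sodium-proton exchanger and anion exchangers hold the ion gradients and the alkaline pH on which swimming depends. Most of these proteins act in the mature sperm, but the transcripts behind them are made earlier, in spermatocytes and spermatids. Whole testis also holds somatic cells, and the reads of a gene cannot be assigned to a cell type here.

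The libraries held 17635045 to 18117593 counts. Reads of 1700052I22Rik, on chromosome 12 from 80923432 to 80924449 in mm10, numbered 185, 175 and 218 in WT and 0 in each KO library. A limit of 3 counts over the KO group puts its level there at least 189.6-fold lower, counting error only (edgeR's quasi-likelihood test, Benjamini-Hochberg adjusted over all genes, adjusted p = 4.89e-07). WT 1 and KO 2 stood apart from the other libraries on the leading principal component of all tested genes, at -22.8 and -30.2 against 6.98 to 17.5. The same 2 libraries had the lowest summed level of 8 Leydig cell markers, 252 and 277 CPM (counts normalised to library size by TMM) against 476 to 896 in the other 4. All 8 of these markers were below 0 in log2 fold change of KO over WT, with a median of -0.33, and edgeR called 0 of them, with 1 at an unadjusted p under 0.05. Spermatocytes and spermatids were present, as all 8 markers each of meiotic spermatocytes, round spermatids and elongating spermatids passed the low-count filter. Summed levels were 1357 to 1497 CPM in WT and 1477 to 1525 in KO for round spermatids, 1910 to 2134 and 2082 to 2153 for spermatocytes, and 17156 to 19286 and 16664 to 19830 for elongating spermatids. Macrophage markers summed to 62.1 to 91.2 CPM in WT and 52.9 to 67.0 in KO, with 8 of 8 below 0 in log2 fold change and a median of -0.36. Of these 8, edgeR called 0 and gave 4 an unadjusted p under 0.05, against 4.63% of all tested genes. Median log2 fold changes were -0.15 for spermatogonia, -0.14 for Sertoli cells, -0.03 for peritubular and endothelial cells and -0.46 for blood. They were 0.03 for spermatocytes, 0.04 for round spermatids and 0.02 for elongating spermatids. In each of these lists 0 were called, and 2 of 8 spermatogonia markers had an unadjusted p under 0.05. The 8 epididymis markers summed to 4.07 to 5.34 CPM in WT and 4.77 to 5.05 in KO. Of these, 2 passed the low-count filter, while Lcn5, Lcn8 and Spag11b were at 0 counts in all libraries.

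None of the regulators passed the test over all genes, and their levels in KO lay close to those in WT. Of the 10, 9 had enough reads for the test, while Slc26a3 was too scarce. Over all 19320 tested genes edgeR called 1, the target, which is 0.00518% of them. Of the 9 tested regulators 0 were called by edgeR, 0 by DESeq2, which called 0.0104% of all genes, and 0 by limma-voom. At an unadjusted p under 0.05 edgeR had 1 of the 9, Atp1a4, against 4.63% of all tested genes, and DESeq2 had 0 of the 9. The log2 fold changes of KO over WT ran from -0.08 for Prkar1a to 0.19 for Lrrc52, with 7 of 9 above 0 and a median of 0.08. Over all tested genes 49.3% were above 0 and the median was -0.0025. Leaving out WT 2, WT 3 or KO 2 gave 5 of 9 above 0, with medians of 0.04, 0.02 and 0.02. On the TMM scale the groups did not overlap for 2 of the 9, Kcnu1 and Atp1a4, both with KO above. That is 22.2%, beside 9.32% of all tested genes. With library size alone Atp1a4 overlapped and Prkaca came apart with KO below. The 95% interval of each of the 9 stayed inside 1.5-fold up or down, which held for 61.6% of all tested genes. The outermost bounds were 0.846-fold for Prkar1a and 1.36-fold for Lrrc52.

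**Figure D1:**
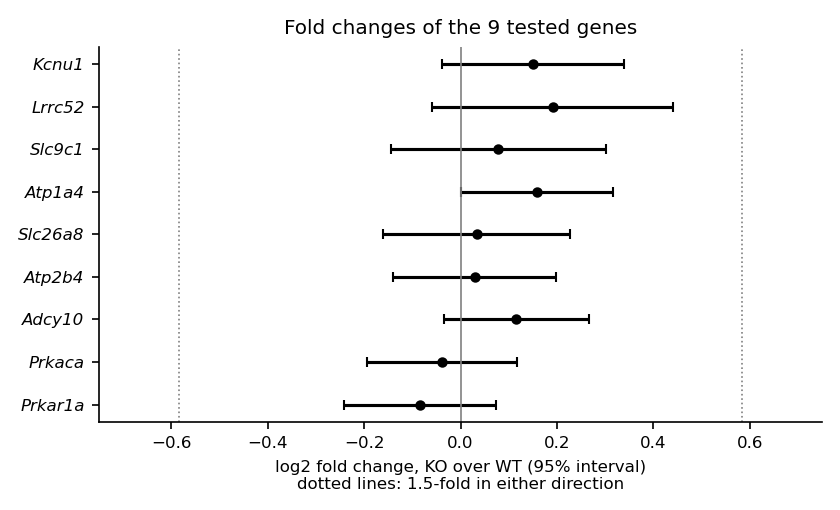
Log2 fold change of KO over WT (x axis) for the 9 tested genes (y axis), points with 95% intervals from edgeR's moderated standard errors and dotted lines at 1.5-fold. Every interval lies inside the dotted lines, and that of Atp1a4 alone leaves out 0, by less than 0.001.

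Kcnu1 encodes the pore-forming subunit of the sperm potassium channel, also called SLO3, which opens on alkalinisation. The gene lies on the plus strand of chromosome 8, from 25849623 to 25937939 in mm10, and its longest coding transcript has 27 exons. Its level was 75.3, 73.5 and 63.8 CPM in WT 1, 2 and 3 and 76.0, 82.3 and 77.7 CPM in KO 1, 2 and 3, the order used throughout. The KO libraries were above all WT libraries, but the lowest KO value exceeded the highest WT value by only 0.680 CPM. Groups did not overlap with KO above WT for 4.69% of all tested genes. The means were 70.9 ± 6.18 and 78.7 ± 3.29 CPM (SD, n = 3), a log2 fold change of 0.15 (95% interval -0.04 to 0.34; edgeR's quasi-likelihood test, Benjamini-Hochberg adjusted p = 0.965). Without WT 3 it was 0.08.

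Lrrc52 encodes the leucine-rich repeat protein that joins the same channel as an auxiliary subunit and shifts its opening towards voltages and pH found in sperm. Its position is chromosome 1, minus strand, 167445669 to 167466780, and it has a single annotated transcript of 2 exons and 1143 bases. Lrrc52 had 27.1, 29.7 and 28.8 CPM in WT and 27.0, 34.8 and 35.9 CPM in KO. KO 2 and KO 3 were above every WT library while KO 1 was the lowest of all 6. The log2 fold change of Lrrc52 was 0.19 (95% interval -0.06 to 0.44; edgeR, adjusted p = 0.965), and the KO spread was wide, at 32.6 ± 4.89 against 28.5 ± 1.33 CPM in WT (SD, n = 3). The value was 0.31 without KO 1, and 0.11 without KO 3. Within each library the reads of Lrrc52 per read of Kcnu1 were 0.360, 0.404 and 0.451 in WT and 0.355, 0.423 and 0.462 in KO. The proportion of the 2 subunit transcripts covered the same range in both genotypes, with a mean log2 difference of 0.03 (two-sided exact permutation test, p = 0.8, where 0.1 is the smallest that 3 against 3 allows; 0.8 adjusted over the 6 ratios tested).

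Slc9c1 encodes the sperm sodium-proton exchanger, an unusual exchanger that carries a voltage sensor and a cyclic nucleotide binding domain and exports protons. The gene has 28 exons on the plus strand of chromosome 16, from 45535309 to 45607001. Slc9c1 had 223, 181 and 167 CPM in WT and 186, 224 and 192 CPM in KO. WT 1 and KO 2 were the high libraries of their groups, near 223 CPM, and the other 4 lay between 167 and 192. The group means of Slc9c1 were 190 ± 28.9 and 201 ± 20.4 CPM (SD, n = 3), a log2 fold change of 0.08 (95% interval -0.14 to 0.30; edgeR, adjusted p = 0.973). Without WT 1 the log2 fold change was 0.21, and without WT 3 or KO 2 it was -0.0056 and -0.0029, so its sign depended on single libraries.

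Atp1a4 encodes the catalytic alpha subunit of the sodium-potassium pump that is made in male germ cells and needed for sperm motility. The 23 exons span 172223513 to 172258414 on the minus strand of chromosome 1. Its level was 693, 596 and 709 CPM in WT and 751, 709 and 770 CPM in KO. WT 2 was the low library, and the lowest KO library exceeded the highest WT library by 0.050 CPM. With library size alone in place of TMM scaling the groups overlapped, at 713 CPM in the highest WT and 709 in the lowest KO library. The log2 fold change of Atp1a4 was 0.16 (95% interval 0.00083 to 0.32), on means of 666 ± 61.2 and 743 ± 30.8 CPM (SD, n = 3). Its unadjusted p of 0.0490 was the smallest of the 9 and did not pass over all genes (edgeR's quasi-likelihood test, adjusted p = 0.965). Without WT 2 the log2 fold change was 0.08.

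**Figure D2:**
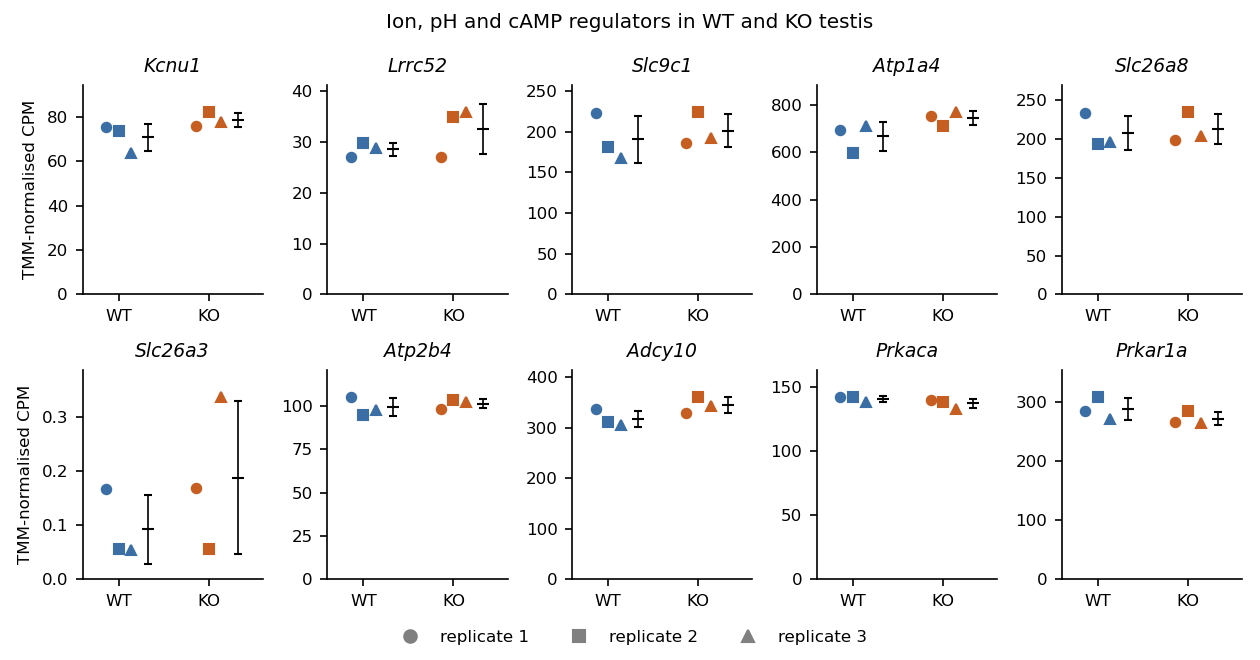
TMM-normalised CPM (y axes, each from 0) in the 3 WT (blue) and 3 KO (orange) libraries for the 10 genes, marker shape giving the replicate number and black bars the mean ± SD. The Atp1a4 and Kcnu1 groups do not overlap on this scale, while Slc9c1 and Slc26a8 are highest in WT 1 and KO 2.

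Slc26a8, also known as TAT1, encodes an anion transporter of the sperm tail that works with the chloride channel CFTR. It lies on chromosome 17, minus strand, 28637783 to 28690233, with 20 exons in its longest coding transcript. Slc26a8 had 233, 193 and 196 CPM in WT and 199, 235 and 204 CPM in KO. WT 1 and KO 2 were again the high libraries, and the other 4 lay between 193 and 204. The log2 fold change of Slc26a8 was 0.03 (95% interval -0.16 to 0.23; edgeR, adjusted p = 0.986), on means of 208 ± 22.02 and 213 ± 19.3 CPM (SD, n = 3). Its sign turned without WT 2, WT 3 or KO 2, where the value lay between -0.04 and -0.0044.

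Slc26a3 encodes a chloride-bicarbonate exchanger best known from the intestinal epithelium and also described in sperm. The gene spans 31390871 to 31473917 on the plus strand of chromosome 12, with 21 exons. The files held 3, 1 and 1 of its reads in WT and 3, 1 and 6 in KO. These 5 and 10 reads among 53991054 and 53537734 give 0.0926 CPM in WT (95% exact Poisson interval 0.0301 to 0.216) and 0.187 CPM in KO (0.0896 to 0.344), counting error only. The ratio of KO to WT was 2.02 with a counting interval of 0.628 to 7.52. This interval includes no change, so at this depth neither a rise nor a fall was resolved. Markers of the intestinal epithelium were also near 0, with a summed level of 1.76 to 1.95 CPM in WT and 1.46 to 3.46 in KO for 5 genes. Reads of Slc26a8 outnumbered those of Slc26a3 by 607 to 4135 times, depending on the library, a ratio that 1 to 6 reads of Slc26a3 set (two-sided exact permutation test, p = 0.5, adjusted over the 6 ratios 0.75).

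Atp2b4 encodes PMCA4, the plasma membrane calcium pump that removes calcium from the sperm tail. Its position is chromosome 1, minus strand, 133699457 to 133801041, with 21 exons. Atp2b4 had 105, 94.8 and 97.9 CPM in WT and 98.4, 104 and 102 CPM in KO. The groups overlapped throughout, at 99.3 ± 5.36 and 101 ± 2.68 CPM (SD, n = 3), and the log2 fold change was 0.03 (95% interval -0.14 to 0.20; edgeR, adjusted p = 0.986) or -0.0044 without WT 2. Reads of Atp2b4 exceeded those of Atp2b1, the pump gene of most tissues, by 6.16, 5.52 and 5.93 times in WT and 6.52, 6.56 and 6.09 times in KO. The mean log2 difference of this ratio was 0.12 and the groups overlapped (two-sided exact permutation test, p = 0.2, adjusted over the 6 ratios 0.75).

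Adcy10 encodes the soluble adenylyl cyclase that bicarbonate and calcium activate and that makes the cAMP of sperm. On chromosome 1 it has 34 exons on the plus strand, from 165485183 to 165576774. Adcy10 had 336, 312 and 306 CPM in WT and 329, 361 and 344 CPM in KO. KO 2 and KO 3 were above all WT libraries, KO 1 was below WT 1, and the means were 318 ± 15.9 and 345 ± 16.0 CPM (SD, n = 3). Its log2 fold change was 0.12 (95% interval -0.03 to 0.27; edgeR, adjusted p = 0.965). The exchanger of Slc9c1 is bound to this cyclase in sperm, and Slc9c1 had 0.663, 0.578 and 0.547 reads per read of Adcy10 in WT and 0.566, 0.621 and 0.559 in KO. This ratio differed by -0.03 on the log2 scale (two-sided exact permutation test, p = 0.8, adjusted 0.8), less than its SD of 0.14 between WT libraries.

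Prkaca encodes the alpha catalytic subunit of protein kinase A. The gene has 2 starts on the plus strand of chromosome 8, between 83972993 and 83996443, and the start within the gene gives the Cα2 form, which replaces the ubiquitous Cα1 form in spermatids and sperm. The coding parts of the alternative first exons, 3886 bases apart at chr8:83973187-83973232 and chr8:83977073-83977094 in mm10, are shown because they are all that tells the coding sequences apart: the 1007 coding bases that follow are identical. They are copied from GENCODE M21 transcripts.
Prkaca-201 (Cα1), 46 bases: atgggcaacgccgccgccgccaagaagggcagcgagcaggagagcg
Prkaca-202 (Cα2), 22 bases: atggcttccagctccaacgatg
Counts per gene add both forms, so the values below hold no information on their proportion. The 250 bases before each start, from the RefSeq promoter table (GRCm38.p6), are shown next because they differ in composition. Capitals mark CCAAT boxes (CCAAT or its reverse complement) and TGACG, the core of the cAMP response element TGACGTCA, on either strand.
Prkaca upstream start, chr8:83972728-83972977: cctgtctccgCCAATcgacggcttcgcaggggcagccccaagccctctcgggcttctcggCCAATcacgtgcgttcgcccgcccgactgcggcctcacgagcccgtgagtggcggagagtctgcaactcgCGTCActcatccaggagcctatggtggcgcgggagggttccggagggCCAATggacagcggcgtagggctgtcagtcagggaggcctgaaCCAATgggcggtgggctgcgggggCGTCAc
Prkaca internal start, chr8:83976633-83976882: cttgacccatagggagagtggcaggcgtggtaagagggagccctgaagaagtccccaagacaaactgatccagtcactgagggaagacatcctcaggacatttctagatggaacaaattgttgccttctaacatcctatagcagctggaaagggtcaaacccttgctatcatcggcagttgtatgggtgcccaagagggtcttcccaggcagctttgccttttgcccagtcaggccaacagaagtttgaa
The upstream window held 4 CCAAT boxes and 2 TGACG cores, and the internal window held 0 of each. Of 32851 such windows over all genes, 33.8% held a CCAAT box and 17.8% a TGACG core.

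Prkaca was the steadiest of the 9 genes, with 142, 142 and 138 CPM in WT and 140, 139 and 133 CPM in KO. Its coefficient of variation over the 6 libraries was 2.44%, where counting error alone gives 2.01%. The log2 fold change of Prkaca was -0.04 (95% interval -0.19 to 0.12; edgeR, adjusted p = 0.977), on means of 141 ± 2.23 and 137 ± 3.69 CPM (SD, n = 3). KO 3 was the lowest library, and KO 1 and KO 2 lay within the WT range on the TMM scale. With library size alone the groups came apart, with the highest KO library at 138.5 and the lowest WT library at 138.9 CPM.

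Prkar1a encodes the type I alpha regulatory subunit, which holds the kinase inactive until cAMP binds. It lies on the plus strand of chromosome 11, from 109649405 to 109669656, with 12 exons in its longest coding transcript. The RefSeq table lists several starts for it, which gave 6 windows. The window before the start at 109650949 was the only one of 15 windows of 9 of the genes to hold the full response element TGACGTCA, which 1.55% of all windows hold. Its 222 bases up to the next annotated exon are shown with the element and a further TGACG core in capitals. The element begins 49 bases before the start at 109650949 and lies downstream of another listed start, at 109650862.
Prkar1a, chr11:109650699-109650920: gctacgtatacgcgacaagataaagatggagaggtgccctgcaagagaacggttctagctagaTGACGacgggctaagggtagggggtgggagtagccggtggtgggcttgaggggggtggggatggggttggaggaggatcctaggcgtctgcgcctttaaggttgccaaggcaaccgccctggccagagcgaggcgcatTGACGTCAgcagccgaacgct
The presence of these letters is a description of the sequence and no evidence of binding. Prkar1a had 285, 309 and 271 CPM in WT and 267, 285 and 264 CPM in KO. WT 2 was the highest library, KO 1 and KO 3 lay below every WT library, and KO 2 was within the WT range. The log2 fold change of Prkar1a was -0.08 (95% interval -0.24 to 0.07; edgeR, adjusted p = 0.967), on means of 288 and 272 CPM with coefficients of variation of 6.59% and 4.21% (n = 3). Reads of Prkar1a per read of Prkaca were 2.01, 2.17 and 1.96 in WT and 1.91, 2.06 and 1.99 in KO. The proportion of regulatory to catalytic subunit reads differed by -0.05 on the log2 scale, within its spread (two-sided exact permutation test, p = 0.5, adjusted over the 6 ratios 0.75).

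Libraries of the same genotype differed among themselves. Relative to each gene's mean over the 6 libraries, KO 2 was above 0 for 8 of the 9 genes with a median log2 deviation of 0.13, and WT 1 for 7 with a median of 0.03. WT 3 was above 0 for 1 gene and WT 2 for 2, with medians of -0.08 each. Slc9c1 deviated by 0.20 in both WT 1 and KO 2, and Slc26a8 by 0.15 and 0.16. Lrrc52 went another way, at -0.16 in WT 1 and 0.20 in KO 2, and Prkaca was farthest from its mean in KO 3, at -0.06. WT 1 and KO 2 are also the libraries that stand apart over all genes and have few Leydig transcripts. In whole tissue a smaller share of a cell type and less RNA per cell cannot be told apart, and the part of cell composition in these deviations was not tested. With both libraries left out the log2 fold changes ranged from -0.12 for Prkar1a to 0.22 for Atp1a4, 7 of 9 were above 0, and 0 were called by edgeR. The SD of log2 CPM over 6 libraries was 0.04 to 0.18 for the 9 genes with a median of 0.12, and it had a median of 0.13 over the 12211 tested genes that averaged 5 CPM or more.

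**Figure D3:**
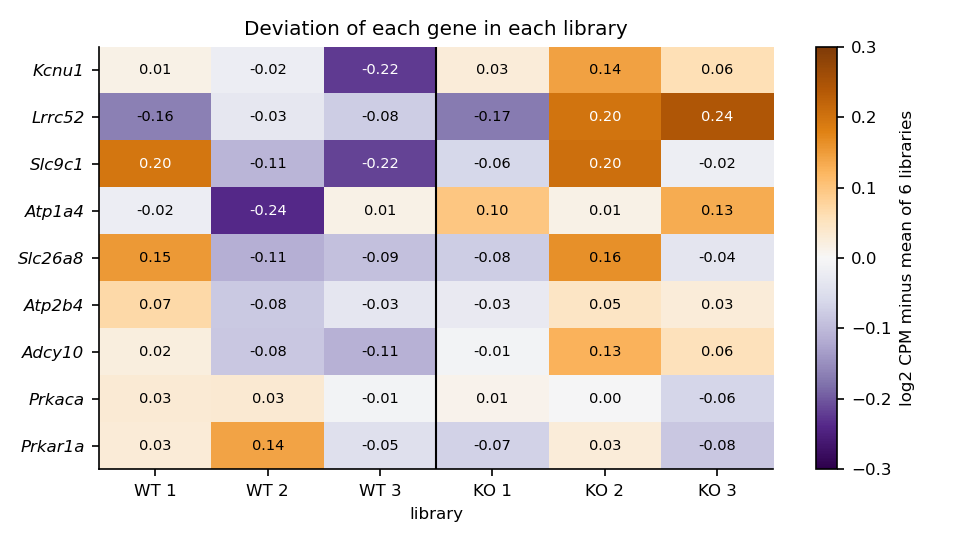
Log2 CPM of each of the 9 tested genes (rows) in each library (columns) minus the mean of that gene over the 6 libraries, with orange above and purple below 0 and the vertical line between WT and KO. The Slc9c1 and Slc26a8 rows are highest in WT 1 and KO 2, and the Prkaca row is nearly flat.

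Levels between genes were compared per length, as reads per kilobase of gene on the CPM scale (RPKM), with means and SDs over the 6 libraries. Atp1a4 led at 192 ± 16.5 RPKM, above 98.5% of the tested genes. Prkar1a had 64.8 ± 3.86 RPKM and Prkaca 55.9 ± 1.36. Slc9c1 at 48.2 ± 5.70, Slc26a8 at 44.2 ± 3.94 and Adcy10 at 37.9 ± 2.33 RPKM followed. Lrrc52 had 26.7 ± 3.41, Kcnu1 20.0 ± 1.65, Atp2b4 8.19 ± 0.323 and Slc26a3 0.0220 ± 0.0174 RPKM. Of the 9 pairs of neighbours in this order, 3 overlapped over the libraries: Prkaca with Slc9c1, Slc9c1 with Slc26a8, and Slc26a8 with Adcy10. Per length, then, the auxiliary channel subunit Lrrc52 stood above the pore subunit Kcnu1, although it had fewer reads. The gene length in the file equals the union of all annotated exons for all 10 genes. With the longest coding transcript instead, a choice made after the data were seen, the length of Adcy10 fell from 8739 to 5210 bases. Its level was then 63.6 RPKM, next in order below Prkar1a at 79.7 RPKM without overlap. Adcy10 overlapped Prkaca, at 61.1 RPKM. Per longest coding transcript Lrrc52 still lay above Kcnu1, and again 3 pairs of neighbours overlapped.

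**Figure D4:**
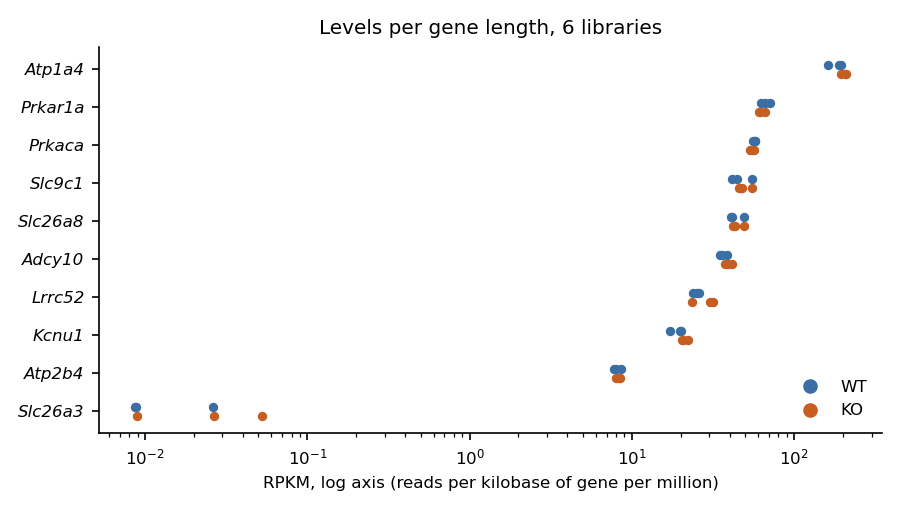
Level per gene length in RPKM (x axis, log scale) in each WT (blue) and KO (orange) library for the 10 genes, ordered by mean (y axis). Atp1a4 is highest near 192 RPKM, 8 genes lie between 7.74 and 71.4, and Slc26a3 is below 0.06.

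The annotation was searched for sequence and positions that these genes share with others. Of 50-base stretches of the genes' annotated transcripts, 0 were shared with another gene for Kcnu1, Lrrc52, Slc9c1, Adcy10, Slc26a3 and Prkar1a. For Atp1a4 2.38% were shared, for Atp2b4 1.04%, for Prkaca 0.328% and for Slc26a8 0.220%. In position, 8 annotated genes overlapped Atp1a4, Adcy10, Slc26a3 or Atp2b4. Of these, 7 had 0 counts in every library and the other, Gm37368 within Atp2b4, had at most 1. As the counter and its use of strand are not known, these counts cannot show whether overlapping genes added reads.

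For Lrrc52, which had the largest SD of log2 CPM, the most similar profiles were sought over 11040 protein-coding genes averaging 5 CPM or more and were those of 0610009B22Rik (Pearson r = 0.992 over the 6 libraries), Nr2c1 (0.976) and Chd9 (0.976). For Atp1a4, which had the smallest p, they were Eefsec (0.992), Dctn5 (0.984) and Cdk14 (0.982). The 6 points share their libraries and scaling, and 66 and 164 genes had r above 0.9 with Lrrc52 and Atp1a4, so these values are descriptions only.

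None of the other genes of the same pathways passed the test either. Of 106 further genes on 10 lists, 105 were in the table under the symbol used and 93 were tested. Of the 93, 0 were called higher and 0 lower by edgeR, 0 by DESeq2, while edgeR gave 3 an unadjusted p under 0.05, Fxyd2, Catspere2 and Catsper1, a smaller share than the 4.63% of all tested genes. Their median log2 fold change was 0.04, and 57 of the 93 were above 0. The groups did not overlap for 7 of them, 7.53%, beside 9.32% of all tested genes.

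Within the transport lists, the median log2 fold change of 7 relatives of the potassium channel was -0.01 with 3 of 7 above 0, with Kcnk5 at 0.27 and Kcnma1, which encodes the calcium-activated BK channel, at -0.23. The 8 tested sodium-proton exchangers and the proton channel had a median of 0.0068, with 4 of 8 above 0. Slc9b1, another exchanger made in germ cells, was the most abundant of them per length, at 42.9 RPKM with a log2 fold change of 0.05. Slc9a3 and Slc9a9 were scarce, with log2 fold changes of 0.54 and -0.36. The 7 sodium-potassium pump subunits had a median of -0.04, with 3 of 7 above 0. Atp1b3, a beta subunit that partners the alpha chains, was abundant at 248 RPKM with a log2 fold change of 0.02. Fxyd2, a small regulator of the pump best known from kidney, had 13.6, 16.8 and 12.6 CPM in WT and 11.4, 9.08 and 10.4 CPM in KO. Its groups did not overlap, with a log2 fold change of -0.48 that did not pass over all genes (edgeR, adjusted p = 0.965).

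For the 7 calcium pumps the median log2 fold change was 0.0026, with 4 of 7 above 0. Atp2a2, which encodes the pump that loads the endoplasmic reticulum, had 35.3 RPKM and a log2 fold change of 0.0026, while Atp2c1 stood at 0.18 and Atp2a3 at 0.25. The 12 tested genes of anion and bicarbonate transport had a median of -0.05, with 4 of 12 above 0. Car2, encoding a carbonic anhydrase, led at 87.7 RPKM with a log2 fold change of -0.04. Cftr, the chloride channel gene, had 12.5, 10.9 and 11.1 CPM in WT and 12.2, 14.9 and 14.1 CPM in KO. KO 2 and KO 3 were above all WT libraries and KO 1 was not, and the log2 fold change was 0.26 (edgeR, adjusted p = 0.965). Car14 was below 1.1 CPM throughout, with a log2 fold change of 0.48. The 12 CatSper subunits, which form the calcium channel of the sperm tail, had a median of 0.08 with 10 of 12 above 0. Catsper1, which encodes a pore subunit, had a log2 fold change of 0.19 and Catspere2 0.36 (edgeR, adjusted p = 0.965 for both). Catsperz, at 399 RPKM the most abundant, had -0.04.

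**Figure D5:**
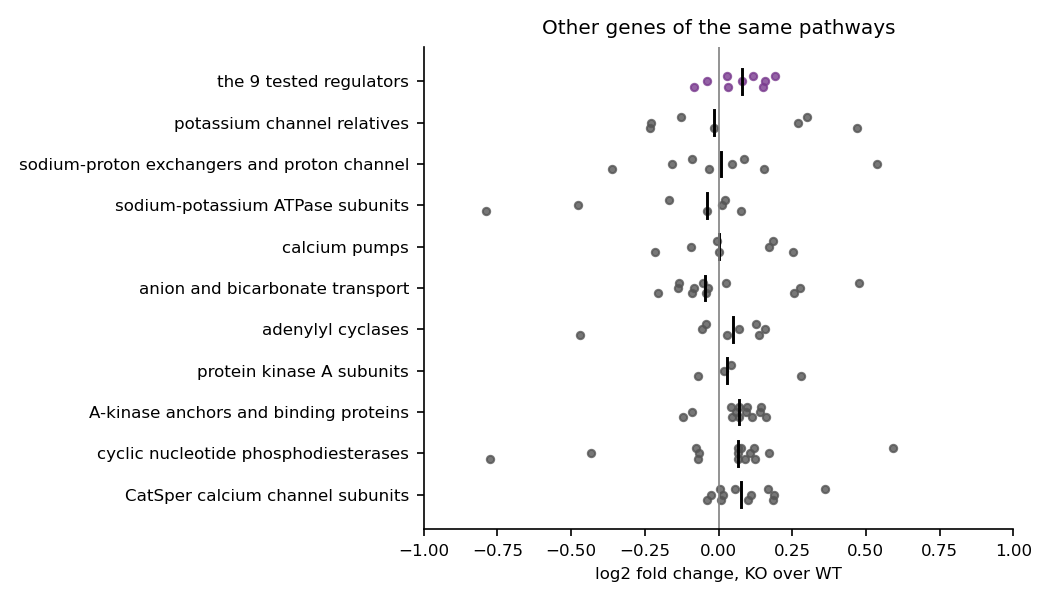
Log2 fold change of KO over WT (x axis) of the 9 tested regulators and of the 93 tested genes on 10 pathway lists (rows), 1 point a gene with a black bar at the row's median. Medians lie between -0.05 and 0.08, and points beyond 0.5 in either direction are 4 single genes.

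Among the genes of cAMP signalling, the 8 tested transmembrane adenylyl cyclases were scarce, and their median log2 fold change was 0.05, with 5 of 8 above 0. The most abundant per length, Adcy6, reached 1.39 RPKM, against 37.9 for the soluble Adcy10, and had a log2 fold change of -0.06. Adcy9 stood at -0.47 and Adcy7 at 0.14. The other 4 protein kinase A subunits had a median of 0.03 with 3 of 4 above 0. Prkar2a, the type II regulatory subunit of the sperm tail, had 43.5 RPKM and a log2 fold change of 0.02, and Prkacb, the beta catalytic subunit, 1.74 RPKM and -0.07. Prkar2b had 8.65, 9.70 and 9.03 CPM in WT and 11.3, 10.2 and 11.8 CPM in KO. Its groups did not overlap, and the log2 fold change of 0.28 did not pass over all genes (edgeR, adjusted p = 0.965). The 13 genes listed as anchors of the kinase and binding proteins had a median of 0.07, with 11 of 13 above 0. Ropn1l led at 1203 RPKM with a log2 fold change of 0.04, and Cabyr and Ropn1 stood at 0.14 and 0.16. The 15 tested phosphodiesterases, which break cyclic nucleotides down, had a median of 0.07 with 10 of 15 above 0. Pde8a led at 73.3 RPKM with a log2 fold change of 0.07, and Pde4d and Pde7b stood at -0.43 and -0.78. Pde7b was below 1.2 CPM in every library.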

How the data were processed

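Per the labels' protocols, testis RNA was extracted by TRIzol and made into libraries using a VAHTS kit for mRNA. HISAT2 2.0.0 and mm10 are named in the submitters' processing notes. The values the authors deposited are raw counts of reads for each Ensembl gene, beside the gene's length in bases, per the file headers. Not given in the sources used here are the counter, its annotation and whether it used strand, so reads of overlapping antisense genes cannot be told apart. Columns were matched to samples by genotype and replicate number, with 0 value columns unmatched.

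Low counts were removed by filterByExpr (minimum count 10, minimum total 15). KO and WT were compared with edgeR 4.0.16 (TMM, glmQLFit and glmQLFTest, no covariate, Benjamini-Hochberg over 19320 genes, threshold 0.05) in R 4.3.3. CPM values are TMM-normalised, RPKM divides them by the deposited length, and intervals are 95% intervals from moderated standard errors. The 6 read ratios were compared by exact permutation, and 1 of them and some genes the naming rule takes are not reported here. DESeq2 1.42.0, limma-voom (limma 3.58.1), other scalings and filters, the replicate number as a block and omission of libraries were alternatives.

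The members, the lists and the alternatives were chosen with earlier results of these data known. Named genes were the target, all members, the genes of the ratios, from each pathway list the 2 with the smallest p and the 1 with the highest RPKM, and for 2 members the 3 genes of most similar profile. Members other than Slc26a3 had 479 to 13718 reads in each library.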

Additional observations from a re-analysis of the deposited data

How the results depend on the processing

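Of the 9 tested regulators 0 were called under all 15 alternatives, as were 0 of the tested pathway genes and 0 of the 6 ratios under theirs; for the ratios the design cannot reach the threshold. Adjusted p of the 9 genes in edgeR, DESeq2 or limma-voom lay between 0.499 (Atp1a4 without WT 1 and KO 2) and 0.9999. The log2 fold changes of Kcnu1, Lrrc52, Atp1a4, Adcy10, Prkaca and Prkar1a kept their sign in all 15. That of Slc9c1 ranged from -0.0056 to 0.21 with 1 library left out, that of Slc26a8 from -0.039 to 0.12 and that of Atp2b4 from -0.0044 to 0.072, and their signs turned only there. Over all genes, 1 was called with all 6 libraries, 50 with no low-count filter, 2 with DESeq2, 9 without WT 1 and KO 2 together, and 1 to 3 with single libraries left out; the cause was not tested. The order of levels depended on the gene length used, with 3 overlapping neighbours under both lengths.

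The replicate number as a block called 1 gene over all genes and 0 of the 9, and changed no call. Deviations of same-numbered libraries correlated at -0.17, -0.03 and 0.11, and WT 1 correlated best with KO 2 (0.19), so the numbers do not show a pairing. Depth limits Slc26a3, at 1 to 6 reads a library.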
